A study of Saccharomyces cerevisiae with 91 samples.

Results

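The 671 nucleosome-depleted regions (NDRs) that were least spanned by Micro-C contacts in wild-type budding yeast, out of 6719 in all, were described across mutants, drug treatments, nuclease doses and domain boundaries. They were chosen by scaling each wild-type column of the table of NDR-spanning reads to RPM (reads in 1000000 of the column's NDR-spanning reads), averaging these values per NDR, and taking the lowest 10%. The wild-type values chose the members, so they are given below as a description with no test, and the same holds for every contrast with wild type at 30 °C.

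An NDR is a stretch of DNA with few nucleosomes, found in yeast mostly at promoters and also at many gene ends. In Micro-C, micrococcal nuclease (MNase) trims crosslinked chromatin down to nucleosomes and nearby ends are ligated, so a read pair with one end on each side of an NDR reports that nucleosomes on both flanks were joined. In yeast, strong promoters and NDRs are known as places where contact domains of one to a few genes end. Members of the ribosomal protein (RP), glycolytic and small nucleolar RNA gene families are among the most heavily transcribed genes of growing yeast.

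Wild type was strain BY4741 grown in YPD at 30 °C, with 16 replicates in 18 columns. The drug groups were BY4741 with 1.5 mM diamide for 30 min (2 replicates), a thiol oxidant, and BY4741 with 3 ug/mL thiolutin for 45 min (2 replicates), an inhibitor of transcription. The strains med1d (3 replicates, Mediator subunit), rtt109d (3, histone acetyltransferase) and rnh201d (2, RNase H2) are labelled as deletions. The ts allele ssu72-2 (3, RNA polymerase II phosphatase) was kept at 32 °C, and H4d4-14 and H4R23A (2 each) carry altered histone H4. BY4741 and the ts alleles rsc8-21 and sth1-2 (RSC remodeler), scc2-4 (cohesin loader) and rgr1-100 (Mediator, given as rgr1-97 in the strain field) were each held at 37 °C for 90 min and gave 1 column each. Single libraries of W303, BY4741 at 32 °C, a strain with wild-type H3/H4 on a plasmid and the histone H4 mutants H4K16Q and H4Q93E, one without crosslinking, one without ligation, and BY4741 digested with MNase at 0.25X and 1X in 4 gel fractions completed the set. The strains rpd3d and top1d were left out of the tests, because in earlier work on these data the reads in the deleted gene did not clearly bear out the label. Separate cultures are not stated for the replicates, and p-values cover the spread between these libraries alone.

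The wild-type libraries held 105690 to 1304896 spanning reads, and the 19 libraries of the 8 tested groups held 84223 to 951070. The ribosomal DNA (rDNA) locus, 23 NDRs on chromosome XII and none of them a member, took 14.9% to 34.3% of spanning reads in wild type and 40.6% to 62.1% in rtt109d. From the single loci onward, levels are therefore spanning reads in 1000000 of the library's spanning reads outside the rDNA locus, while RPM always refers to the whole column. One read pair can span several NDRs, so neighbouring members share reads and are not independent.

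In wild type the members had mean levels of 18.3 to 52.0 RPM with a median of 43.2, against a median of 89.2 over all NDRs. The members' median was 2.07-fold lower. The edge of the choice was not a gap. By wild-type mean RPM, the last members inside were VIII 380468 (51.96, between YHR140W and YHR139C-A), XVI 340610 (52.01, inside CAR1) and XI 325698 (52.01, at the start of BLI1), while the first NDRs outside were IV 330616 (52.04, between BDF2 and YET3), XIII 502026 (52.06, SPC24) and VII 598422 (52.07, inside YGR054W). Positions are those of the deposited table, whose genome build is sacCer3 per the submitters' processing notes.

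**Figure D1:**
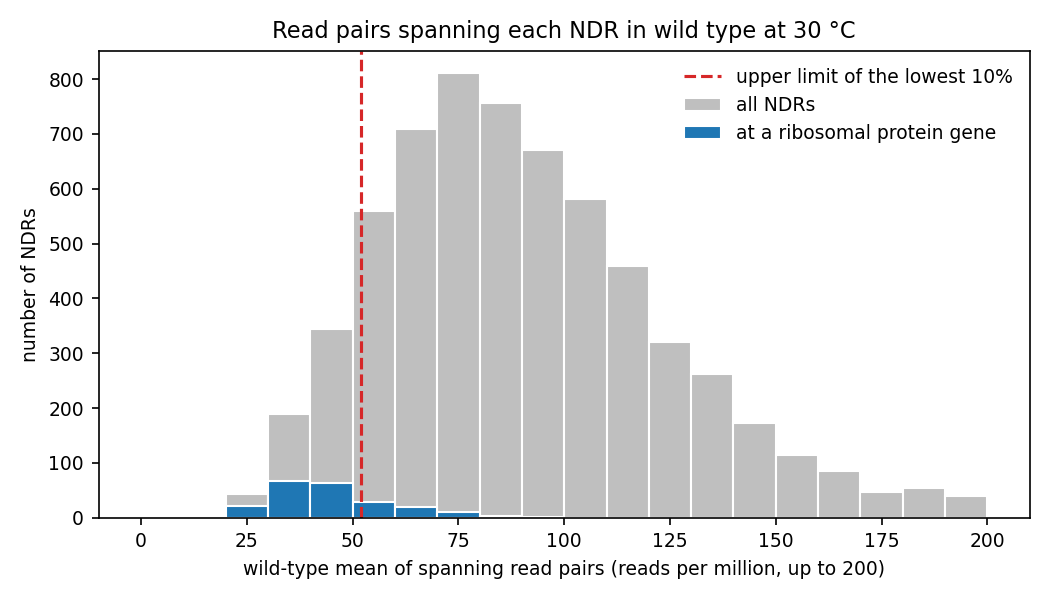
The x axis is the mean RPM of spanning reads in wild type at 30 °C (NDRs above 200 are not drawn) and the y axis is the number of NDRs in each bin, for all NDRs (grey) and for NDRs at, in or at the end of an RP gene (blue). The dashed line marks the upper limit of the lowest 10%, and most blue NDRs lie on its left.

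Members lay next to each other along the chromosomes. They formed 255 runs of neighbouring NDRs, of which 88 held 1 member and 36 held 5 or more, with 225 members in the latter. The neighbouring NDR was also a member for 86.9% of members, against 15.9% of all NDRs, and the nearest NDR was a median of 604 bp away, against 981 bp. Closely spaced NDRs can be spanned by the same pairs, which enters these shares. The longest run, 11 members on chromosome II from 369855 to 379648, covered TIP1, a cell wall mannoprotein, and the amino acid permease genes BAP2 and TAT1. A run of 9 on chromosome VII from 478854 to 485341 covered PMA1, which encodes the plasma membrane proton pump. Runs of 9 on chromosome II (591465 to 615180) and chromosome XVI (404252 to 412065) covered RPS9B with RPL21A and RPS9A with RPL21B, the paired copies of the same RP genes. By chromosome, members made up from 4.03% of NDRs on VI to 14.9% on II.

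The members sat less often inside genes and more often near small RNA genes than NDRs in general. A gene start on one side marked 48.6% of members and 40.8% of all NDRs, and divergent starts marked 12.8% and 12.6%. Inside a gene and at no gene start lay 9.09% of members and 27.0% of all NDRs. With those at gene starts included, 12.8% of members and 29.0% of all NDRs lay inside a protein-coding gene. A small nucleolar or small nuclear RNA gene lay within 200 bp of 30 members (4.47%), out of 58 NDRs with such a gene nearby (0.863% of all). A tRNA gene lay within 200 bp of 2.83% of members and 1.50% of all NDRs.

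Of all 3586 NDRs with a gene start, 412 (11.5%) were members, and the share was higher at RP and glycolytic genes. Of 101 NDRs at the start of an RP gene, 81 were members (80.2%), with a wild-type median of 40.5 RPM, and NDRs at the start, inside or end of RP genes made up 23.8% of members and 3.24% of all NDRs. Of 21 NDRs at the start of glycolytic genes, 16 were members, among them NDRs of PGK1, TDH3, ENO2 and PDC1. Histone genes had 3 of 9 start NDRs among the members and proteasome genes 5 of 35. Start NDRs of Hsf1 targets (0 of 12, heat shock genes), general regulatory factors (0 of 6) and RSC subunits (0 of 16) held none. Most RP genes exist as near-identical copies whose reads may be hard to place. RP genes whose symbol ends in the copy letter A or B had 72 members among 89 start NDRs (80.9%), and those without a copy letter had 11 among 14 (78.6%).

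The 12 members with the lowest wild-type level came from 6 loci. The lowest 3 lay between 1489217 and 1490402 on chromosome IV, next to another at 1490935. At IV 1489922, inside API2 near its start and at the start of YDR524C-B, the wild-type replicates ranged from 0 to 36.9 with a median of 23.9. The diamide libraries there had 47.4 and 47.7, and the thiolutin libraries 46.3 and 76.97, all above the highest wild-type replicate. The others of this locus were IV 1489217 at AGE1 (an Arf GTPase-activating protein), IV 1490402 at SNA2 and IV 1490935 at RBA50, with wild-type medians of 26.9, 24.99 and 32.2. At IV 1239287, between RPP2B, which encodes a protein of the ribosomal stalk, and COI1, the wild-type range was 0 to 43.2 with a median of 28.3, and the diamide libraries (27.1 and 36.7) lay inside it.

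At X 74856, between the ends of the RP genes RPS14B and RPS22A, wild type ranged from 14.4 to 40.7 with a median of 32.9. Diamide had 112.0 and 115.0 and thiolutin 141.3 and 120.3, and neither overlapped with wild type. At X 74144, inside RPS14B, wild type ranged from 19.4 to 43.3, diamide had 97.3 and 111.6 and thiolutin 99.6 and 110.6. At XIII 652167, between the ends of RPL36A and CMC4, wild type ranged from 9.69 to 49.0, and the diamide libraries had 34.9 and 40.6. At XIII 652491 nearby the wild-type range was 9.69 to 50.9. At XV 619508, at the start of PDR5 (a drug exporter of the plasma membrane), wild type ranged from 0 to 67.8 and diamide had 34.9 and 54.1, and XV 619117 beside it had the same wild-type range. At III 150089, at no gene of the annotation used here, wild type ranged from 6.10 to 77.5 and the library without crosslinking had 63.9.

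The members' low level held in wild-type libraries that had no part in choosing them. With 10.0% of the NDRs outside the rDNA locus, members took 3.74% ± 0.35 (SD, n = 16) of the spanning reads there. When each replicate was left out of the choice in turn, the left-out replicate gave 3.82% ± 0.30 (range 3.30% to 4.25%), which was 1.02 ± 0.085 times the share in the choosing replicates. On the log2 scale, members minus other NDRs in a left-out replicate against the rest ran from -0.12 to 0.11, with a median of 0.03. That is the size of the regression to the mean in single left-out replicates. Replicate 17 stood apart, with the lowest share (2.96%), and the choice without it shared 636 of the 671 members.

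In all other groups members also took well under their equal share of reads. Med1d, rtt109d, ssu72-2, H4d4-14, H4R23A and rnh201d ranged from 3.65% to 4.22%, W303 had 3.92%, BY4741 at 32 °C 4.16%, H4K16Q 4.14% and H4Q93E 4.02%, all within the range of left-out wild-type replicates by this share. Diamide had 5.05% and 4.79%, both above that range. Thiolutin had 5.18% and 4.20%, of which the first lay above it and the second inside. By the median log2 ratio to wild type, members minus other NDRs, more groups lay above the left-out range of -0.12 to 0.11. The difference was 0.34 in thiolutin, 0.33 in diamide, 0.23 in H4d4-14, 0.18 in ssu72-2, 0.14 in rtt109d and 0.12 in H4R23A, while med1d (0.09) and rnh201d (0.05) lay inside. At 37 °C, BY4741 (0.19), sth1-2 (0.34), rsc8-21 (0.26) and rgr1-100 (0.17) also lay above it, while scc2-4 (0.06) lay inside. The 2 measures thus do not put the same groups within the wild-type range, and neither is a test. Within single libraries, the median member over the median NDR was 0.42 to 0.53 in wild type, 0.59 to 0.62 in diamide and 0.58 to 0.68 in thiolutin, and reached 0.59 in med1d and 0.58 in ssu72-2.

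Thiolutin replicate 2 and wild-type replicate 17 carry the same first number in their column names, whose meaning the labels do not give. Of the 671 members, 67 were in the lowest 10% of all 8 groups and 5 in none.

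**Figure D2:**
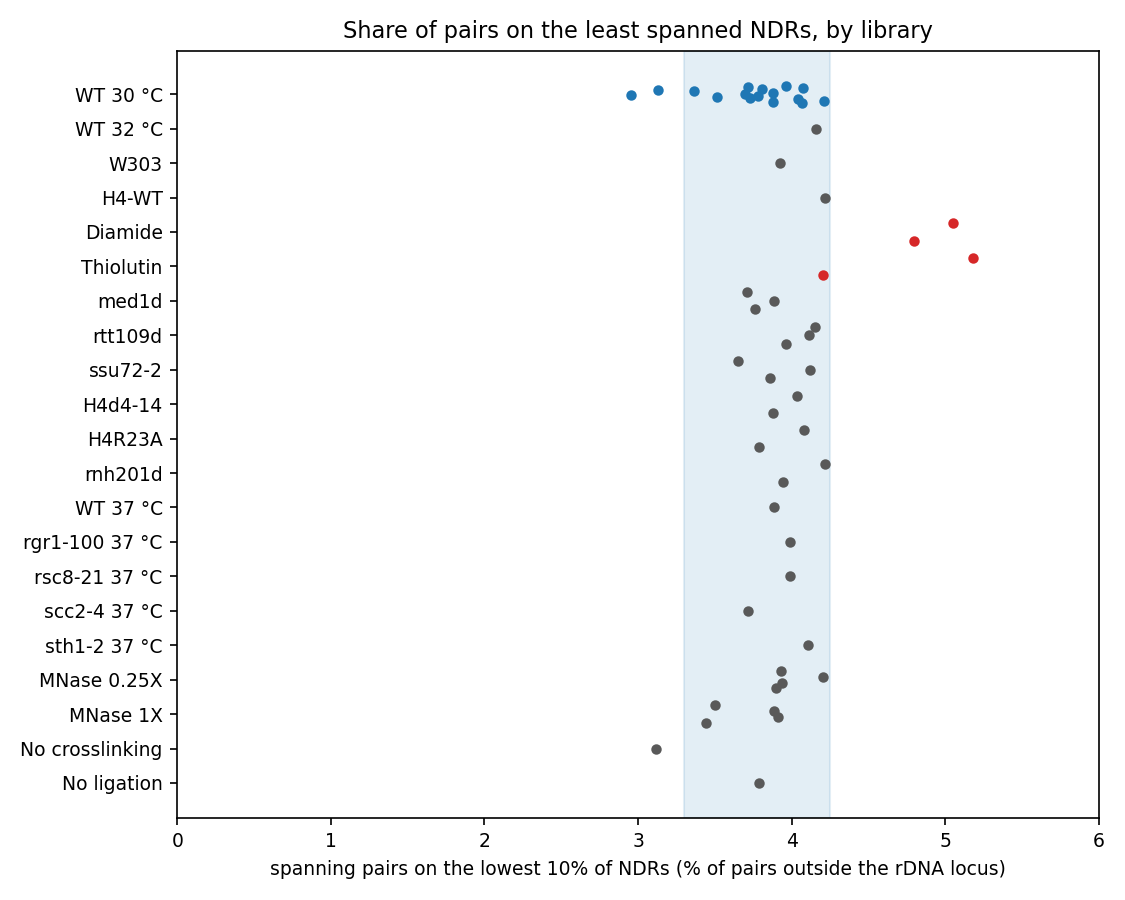
The x axis is the percent of spanning reads outside the rDNA locus that fell on the 671 members and each point is 1 library, by group (the MNase rows hold 4 gel fractions). The shaded band is the range of wild-type replicates left out of the choice (3.30% to 4.25%), and both diamide libraries and 1 of 2 thiolutin libraries lie to its right.

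To ask whether members differed between groups that had no part in the choice, each of the 8 groups was compared with the mean of the other 7 in one fit over all NDRs (edgeR quasi-likelihood test, Benjamini-Hochberg adjusted p under 0.05). All 671 members passed the filter on low counts. The test across all 8 groups called 65 members (9.69%), against 4.93% of all NDRs. It called 28 (4.17%) with the first number in the column names as a block, against 11.4% of all NDRs. The members' excess of calls thus did not hold in that setting.

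Diamide called 54 (8.05% against 2.41% of all NDRs), 50 of them higher (7.45% against 1.55%) and 4 lower (0.863% of all NDRs were lower). The members' median log2 fold change was 0.16 and that of all NDRs 0.01, and 457 of 671 members lay above 0. The 50 higher members lay in 33 runs, so many share reads. Members at RP genes had a median of 0.50, with 151 of 160 above 0, and 36 of them were called, all higher. The 23 members at glycolytic genes had a median of 0.33 with 1 called higher, and the 6 at histone genes a median of 0.00 with none called. RP members at gene starts with and without a copy letter had medians of 0.42 and 0.39.

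The 3 higher members with the lowest adjusted p in diamide were these. VII 255413, between the start of PCL10 (a cyclin of the Pho85 kinase) and the end of RPL1B, had 182.7 and 148.7 in diamide. The 17 libraries of the other groups ranged from 17.4 to 127.4 with a median of 61.8, so the groups did not overlap. The log2 fold change was 1.21 (SE 0.20, adjusted p = 0.000271 in edgeR's quasi-likelihood test). XII 930992, between the ends of DUS4 and RPL31B, had 145.5 and 122.97, above the highest other library (113.5), with a log2 fold change of 1.04 (SE 0.18, edgeR adjusted p = 0.000459, and 0.101 with the first number in the column names as a block). XVI 702007, between the ends of TEF1, which encodes elongation factor EF1A, and GRS2, had 189.4 and 161.5 against 41.1 to 176.1 elsewhere, where the highest value was a thiolutin library. Its log2 fold change was 1.11 (SE 0.21, edgeR adjusted p = 0.00096), and the call was lost when either diamide replicate was left out (edgeR adjusted p = 0.0778 and 0.0679). TEF1 has a near-identical copy, so its reads may be split.

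Of the 4 members lower in diamide, 2 lay at YPL062W. XVI 431727, at its start beside the end of TIM50, had 23.7 and 47.7 in diamide against 34.8 to 110.6 elsewhere, with overlapping groups (log2 -1.07, SE 0.28, edgeR adjusted p = 0.0276). XVI 432194 lay inside YPL062W, at the start of ALD6 (a cytosolic aldehyde dehydrogenase). It had 23.7 and 49.6 against the same range (log2 -1.01, SE 0.28, edgeR adjusted p = 0.0363). II 341354, at no gene start, had 33.8 and 38.5 against 48.3 to 101.4, without overlap (log2 -0.93, SE 0.26, edgeR adjusted p = 0.0381). All 3 calls were lost when either diamide replicate was left out. XVI 432194 was also lost with the column number or the replicate number as a block (edgeR adjusted p = 0.0549 and 0.0613), and II 341354 with the column number (edgeR adjusted p = 0.243).

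These counts rest on both diamide libraries and on how libraries are grouped. Without diamide replicate 1, or without replicate 2, 1 diamide library was left and most of these calls were lost. The members' median log2 was then 0.17 in both cases, against 0.004 and 0.01 over all NDRs. With the first number in the column names as a block, 10 were called (1.49% against 0.729% of all NDRs), 9 of them higher, while the members' median log2 was 0.18. Within a number, diamide replicate 1 gave a median of 0.19 over members and 0.01 over all NDRs against H4d4-14 replicate 2, and diamide replicate 2 gave 0.18 and 0.01 against med1d, rtt109d and ssu72-2 replicate 3. DESeq2 called 27 (4.02% against 1.47% of all NDRs), fewer than the 33 it called in thiolutin (4.92% against 1.56%).

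Thiolutin followed. It called 34 members (5.07% against 1.68% of all NDRs), 29 higher (4.32% against 0.997%) and 5 lower (0.685% of all NDRs were lower). The median log2 fold change was 0.20 over members and 0.02 over all NDRs. The 29 higher members came from 15 runs. RP members had a median of 0.44, with 146 of 160 above 0 and 10 called higher. Glycolytic members had a median of -0.49, with 2 of 23 above 0 and 1 called, an NDR at ENO1 (the enolase gene) that was lower. The 6 histone gene members had a median of 0.46 with none called.

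X 74856, between RPS14B and RPS22A, led the thiolutin calls with 141.3 and 120.3. The other groups ranged from 27.8 to 115.0 with a median of 48.8 and did not overlap (log2 1.25, SE 0.21, edgeR adjusted p = 0.000235). The same NDR had a log2 of 0.93 in diamide (edgeR adjusted p = 0.00465), in a contrast whose reference includes the thiolutin libraries. Beyond PMA1, VII 479429 had 178.4 and 91.4 against 45.8 to 138.7 (log2 1.08, SE 0.19, edgeR adjusted p = 0.000343), and VII 479806 had 169.1 and 91.4 against 39.4 to 135.3 (log2 0.99, SE 0.19, edgeR adjusted p = 0.00109). In both the second thiolutin library lay inside the range of the other groups, and both calls were lost without thiolutin replicate 1.

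Lower in thiolutin was XVI 99289, at the start of YAR1, whose product escorts the RP Rps3. It had 23.2 and 19.2 in thiolutin and 42.97 to 139.1 elsewhere, without overlap (log2 -1.76, SE 0.35, edgeR adjusted p = 0.00166). II 615180, at the end of YBR197C, had 30.1 and 14.4 against 29.8 to 109.9 (log2 -1.49, SE 0.35, edgeR adjusted p = 0.0114), and XV 878235, at BUD7, a gene of membrane traffic, had 50.97 and 24.1 against 39.7 to 131.2 (log2 -0.97, SE 0.26, edgeR adjusted p = 0.036). With the first column number as a block none of these 3 was called (edgeR adjusted p = 0.0718, 0.47 and 0.609), and XV 878235 was also lost with the replicate number as a block (edgeR adjusted p = 0.0805). The wild-type replicates at YAR1 had 38.7 to 94.3, all above both thiolutin libraries.

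The thiolutin calls depended on 1 library and on the grouping more than the medians did. Without thiolutin replicate 2, 12 members were called. With the first number in the column names as a block, 3 were called (0.447% against 0.536% of all NDRs). All 3 were lower and lay at EFB1 on chromosome I (log2 -1.63 at I 141997, -1.62 at I 142329 and -1.57 at I 142610), in a contrast whose reference includes ssu72-2. Over all NDRs, 35 of the 36 calls in that setting were also lower. None of the 6 thiolutin NDRs named above kept its call, X 74856 among them (edgeR adjusted p = 0.167), while the median over members was 0.25 and over all NDRs 0.03. In this block thiolutin replicate 2 shares its number only with wild-type replicate 17. In a fit with no block and without that wild-type replicate, 52 were called (7.75% against 2.29% of all NDRs), beside 34 in the main fit. Against med1d replicate 1, which shares its number, thiolutin replicate 1 gave a median of 0.12 over members and -0.09 over all NDRs.

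**Figure D3:**
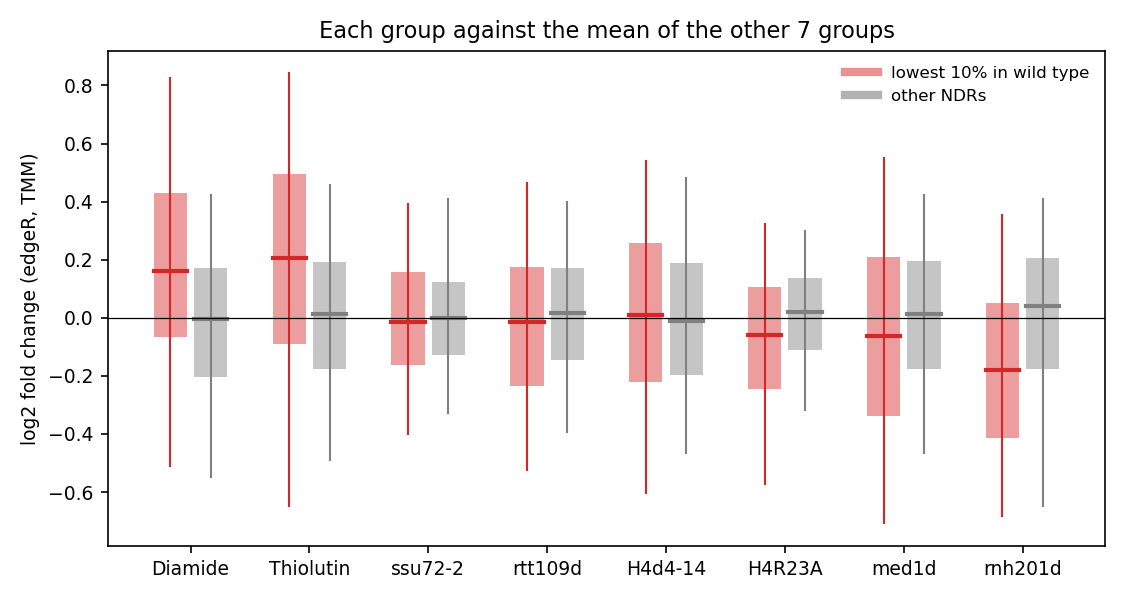
Each pair of boxes shows the edgeR log2 fold change of 1 group against the mean of the other 7, for the 671 members (red) and the other NDRs (grey). Boxes span the quartiles, thick lines are medians and thin lines run from the 5th to the 95th percentile, and the members' median lies highest in diamide (0.16) and thiolutin (0.20) and lowest in rnh201d (-0.18).

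In ssu72-2, 9 members were higher (1.34% against 2.13% of all NDRs) and none lower (0.476% of all NDRs), with 2.6% of all NDRs called in either direction, and the median over members was -0.02. The calls were led by 3 NDRs of EFB1 on chromosome I, which encodes a subunit of elongation factor EF1B. At I 142610, inside EFB1, the 3 libraries had 128.8, 162.0 and 202.7, against 30.1 to 138.9 in the other groups with a median of 73.9 (log2 1.40, SE 0.18, edgeR adjusted p = 9.47e-09). I 141997, at its start (log2 1.40, edgeR adjusted p = 1.33e-08), and I 142329, inside it (log2 1.40, edgeR adjusted p = 1.62e-08), share pairs with it. At all 3 the lowest ssu72-2 library lay inside the range of the other groups. Without ssu72-2 replicate 1, 4 members were called, and these 3 kept their calls in all 27 alternatives. With the first column number as a block, I 747 (log2 0.96) and I 71037 (log2 1.47) were also called higher. All 5 members on chromosome I were thus called in that setting, and whether the change is particular to EFB1 was not tested.

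In rtt109d, 2 members were higher (0.298% against 0.58% of all NDRs), both at HMRA2 of the silent mating cassette on chromosome III. At III 292683 the libraries had 175.3, 98.8 and 74.9 and the other groups at most 73.7 (log2 1.15, SE 0.23, edgeR adjusted p = 0.00251). At III 293196 they had 191.2, 114.3 and 87.3 against at most 87.96 (log2 1.09, SE 0.25, edgeR adjusted p = 0.0117). The cassette has a copy at the mating type locus, so reads there may be split, and neither was called without replicate 2. With the first column number as a block, III 293196 was not called (edgeR adjusted p = 0.114).

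Med1d, rnh201d, H4d4-14 and H4R23A had no called member by edgeR or DESeq2, with 0%, 0.0446%, 0.0298% and 0.0298% of all NDRs called by edgeR. Unadjusted edgeR p-values under 0.05 were held by 55, 103, 35 and 74 members (8.2%, 15.4%, 5.22% and 11.0%), against 6.47%, 12.2%, 5.12% and 5.25% of all NDRs. The medians over members were -0.06, -0.18, 0.01 and -0.06, and 189 of 671 members lay above 0 in rnh201d (28.2% against 53.2% of all NDRs). RP members in rnh201d had a median of -0.44, with 6 of 160 above 0 and none called, in a contrast whose reference includes diamide and thiolutin. In H4R23A their median was -0.20, with 37 of 160 above 0 and none called. With the first column number as a block, edgeR called 1, 1, 2 and 0 members (0.149%, 0.149%, 0.298% and 0%). Over all NDRs the shares in that setting were 2.25%, 2.1%, 4.18% and 0%.

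At 37 °C each allele had 1 column and is set beside the 1 column of BY4741 with no test. A ratio counted when it passed 2-fold with at least 20 reads in the pair of columns, which all 671 members had. In scc2-4, 10 members were lower (1.49%, against 0.223% of all NDRs) and none higher (0.0149%), and 0.238% of all NDRs passed in either direction. In sth1-2, 10 were lower (1.49% against 1.1%) and none higher (0.104% of all NDRs), with 1.21% of all NDRs past 2-fold. In rsc8-21 7 were lower (1.04% against 0.372%), and in rgr1-100 none passed (0.0149% of all NDRs). The scale of these ratios, the sum of all spanning reads, moved the median of all NDRs by -0.22 log2 in both RSC alleles and 0.12 in rgr1-100. Relative to that median, the members' median was 0.15 in sth1-2, 0.05 in rsc8-21, -0.08 in scc2-4 and 0.02 in rgr1-100. Members above it numbered 433, 372, 269 and 351. Counted relative to that median, sth1-2 had 4 members past 2-fold higher and 3 lower (18 and 16 over all NDRs), so its one-sided count did not hold. By the same count rsc8-21 had 1 lower (4 over all NDRs), scc2-4 had 10 lower (15 over all NDRs) and rgr1-100 had 1 lower (2 over all NDRs). The 160 RP members had relative medians of 0.27, 0.12, -0.05 and 0.02.

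The 3 strongest scc2-4 members stood in the run of chromosome VII that covers PMA1 and BRP1. VII 484537 had 17 reads against 64 in BY4741 at 37 °C (log2 -1.20), VII 485341 had 23 against 85 (log2 -1.19), and VII 483718 had 17 against 60 (log2 -1.11). In sth1-2 the strongest were X 123651, at the end of FAR1 (14 against 100 reads, log2 -1.81), X 123251 at CIS3, a cell wall protein gene (15 against 92, log2 -1.59), and II 145954, between MRPL16 and URA7 (20 against 109, log2 -1.43). In rsc8-21 they were XVI 645734 at SPO24 (21 against 99, log2 -1.27), XII 839467 at ILV5, a gene of branched-chain amino acid synthesis (24 against 108, log2 -1.21), and VII 148655 at RPS26A (18 against 79, log2 -1.17). Relative to the median of all NDRs the last 2 had -0.99 and -0.94 and did not pass 2-fold, while XVI 645734 had -1.05.

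**Figure D4:**
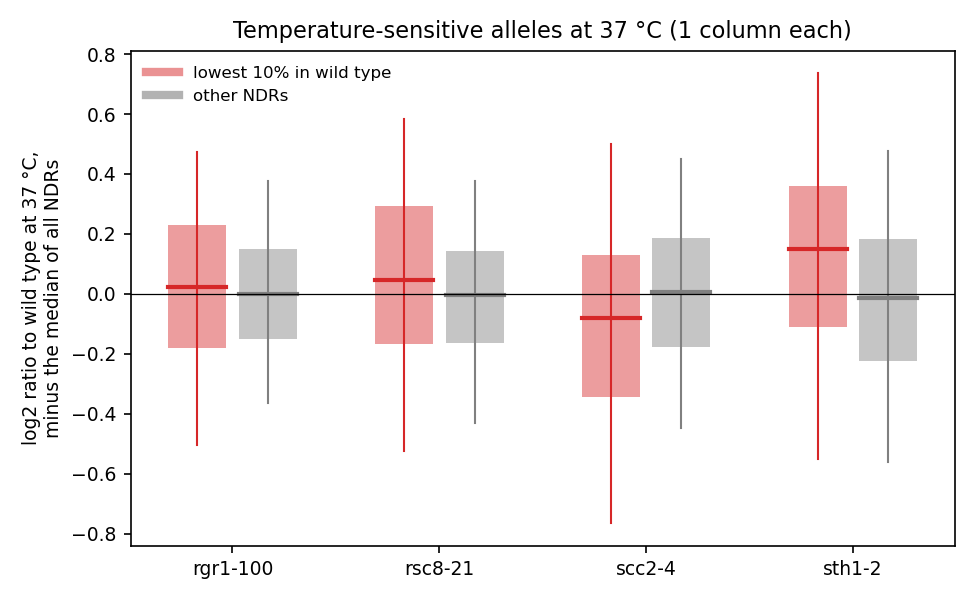
Log2 ratio of each ts allele to BY4741 at 37 °C minus the median over all NDRs, for members (red) and other NDRs (grey), with 1 column per strain. Boxes span the quartiles, thick lines are medians and thin lines run from the 5th to the 95th percentile, and the members' median is highest in sth1-2 (0.15) and lowest in scc2-4 (-0.08).

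The members' share was lower at the higher MNase dose. Summed over the 4 fractions, it was 3.95% (95% exact binomial interval 3.91% to 3.99%) at 0.25X and 3.59% (3.53% to 3.65%) at 1X, with 1 library per fraction and intervals that cover counting error only. By fraction the pairs of values were 3.93% and 3.50% for dimers, 3.90% and 3.45% for the tri-tetra fraction, 4.21% and 3.89% for monomers and 3.93% and 3.91% for the small fraction. For the small fraction the intervals overlapped. The median member over the median NDR went the other way, from 0.519 at 0.25X to 0.576 at 1X in the sums. It was 0.489 and 0.538 for dimers, 0.478 and 0.545 for the tri-tetra fraction and equal in the other fractions. Those equal ratios rest on few reads. Medians of members and all NDRs were 4 and 6 at 0.25X and 2 and 3 at 1X in the small fraction. For monomers they were 6 and 10, then 3 and 5. Ratios of such small whole numbers cannot show whether the doses differed. Members in the lowest 10% of NDRs numbered 473 at 0.25X and 309 at 1X, where the libraries were shallower (536453 against 1334423 spanning reads). The library without crosslinking had a share of 3.12% and the library without ligation 3.79% (3.33% to 4.29%, from 6551 spanning reads). Both controls thus also lay below the equal share of 10.0%, and the part of unligated or random pairs in the wild-type levels was not tested.

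The boundary lists were called by the authors from wild-type libraries and so are not independent of the choice. In the joint list, 270 members (40.2%) lay within 200 bp of a boundary, against 34.9% of all NDRs. Within 100 bp the shares were 27.9% and 29.7%, and within 500 bp 59.5% and 44.4%. The members' median distance was 326 bp and that of all NDRs 741 bp. Each of the 4 separate lists gave 37.7% to 40.2% of members within 200 bp and 33.3% to 33.6% of all NDRs, and 12.4% of members and 11.7% of all NDRs lay that near a boundary in all 4 lists. With all NDRs ranked and cut into 10 equal bins, the share was 42.6%, 45.1% and 44.3% in the 3 bins above the members and 15.9% in the highest.

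The authors' score at the boundaries near members had a median of 2.82 (range 1.13 to 3.92), against 4.27 near other NDRs and 4.19 over the whole list. Every score near a member thus lay below both of these medians. Wild-type libraries gave both the score and the choice of members, and how the score follows the spanning level was not tested. A low score is therefore not read as a weak boundary. The scores of XIII 652167 (1.13), III 178904 (1.22) and VII 483718 (1.30) were the lowest among members, and XIII 652167 was also among the 12 least spanned members.

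**Figure D5:**
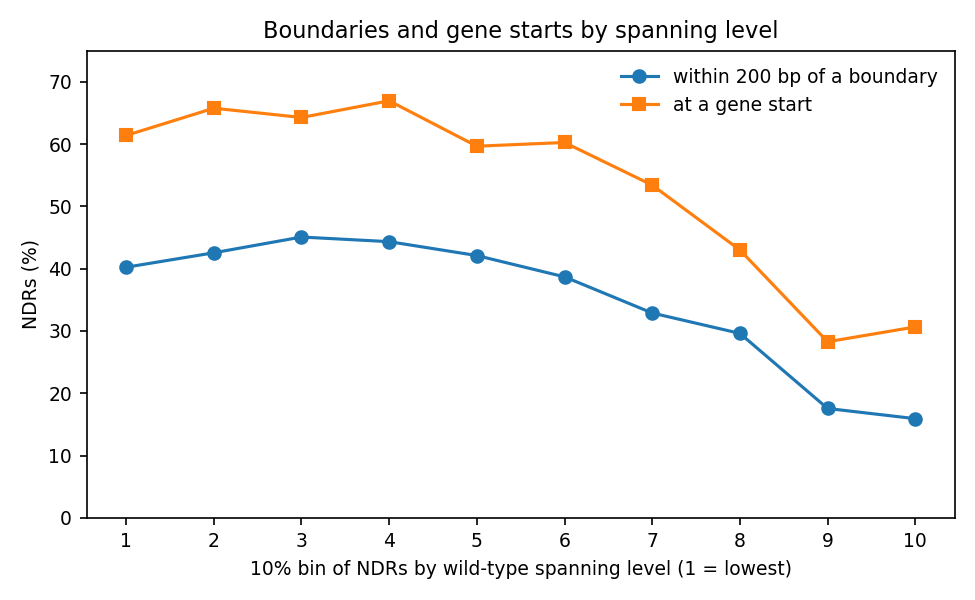
All NDRs were cut into 10 equal bins by their wild-type spanning level (x axis, 1 is the lowest and holds the members) and the y axis is the percent within 200 bp of a joint boundary (circles) or at a gene start (squares). Both curves stay level over the lowest bins and fall toward the most spanned, from 45.1% to 15.9% for boundaries.

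The 321 genes that start at a member had a lower deposited compaction score (log2, long over short contacts, pooled over the libraries of a group) than the 3063 genes at other NDRs in wild type, with medians of -0.31 and 0.05. The score comes from the same wild-type libraries. In diamide 257 of the 321 genes had a higher score than in wild type, with a median difference of 0.34 against 0.16 for the other genes (80.1% higher against 70.0%). In thiolutin the median difference was 0.16 against -0.10. In sth1-2 against BY4741 at 37 °C it was 0.34 against 0.21, with 259 of 321 genes higher (80.7% against 72.9%). The median difference was also higher at members in ssu72-2 (0.02 against -0.10), rtt109d (-0.04 against -0.14) and med1d (-0.19 against -0.27). The same held in H4d4-14 (-0.24 against -0.29) and H4R23A (-0.01 against -0.05). H4K16Q (0.02 against 0.04), rpd3d (-0.19 against -0.15) and scc2-4 (0.05 against 0.06) went the other way. The direction was thus not particular to diamide, thiolutin and sth1-2, and the part of regression to the mean was not tested.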

How the data were processed

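The authors deposited whole-number counts of reads that span each NDR, not normalised, per the file headers. They also deposited boundary lists with a strength score per boundary, and log2 compaction scores per gene that pool the libraries of a group. The rule by which a read was counted as spanning is not stated in the labels or headers. Bowtie2, CASAVA 1.8.2 and the sacCer3 build appear in the submitters' processing notes. Columns of the same replicate were summed, giving 59 libraries from 73 columns, and 10 columns that match no label were not used. Counts were fitted with edgeR 4.0.16 (R 4.3.3, limma 3.58.1) over all 6719 NDRs and 49 libraries, with TMM scaling and a filter on low counts that removed none. DESeq2 1.42.0, with its default dispersion settings, was an alternative. In a test on simulated data for diamide over 6719 NDRs, 74 of 100 NDRs changed 2-fold and 11 of 100 changed 1.5-fold were recovered, with 2 false calls. Ratios at 37 °C used a pseudocount of 0.5 read. An NDR was at a gene start when a start codon lay within 500 bp downstream, or 50 bp upstream, of it; gene models came from the RefSeq R64 table (sacCer3), which holds no Ty elements, so these were not analysed here, nor were sequence motifs.

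The members, gene lists and tests were chosen with earlier results of these data known. Named NDRs are the 12 lowest, those 3 inside and 3 outside the edge, up to 3 called per direction and contrast by adjusted p, up to 3 per direction at 37 °C with at least 50 reads, the 5 with the highest mean rank outside wild type, and the 3 most extreme boundary scores.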

Additional observations from a re-analysis of the deposited data

How the results depend on the processing

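Without scaling beyond the read sum, edgeR called 380 members in the test across groups (56.6% against 54.5% of all NDRs). It called 509 in rtt109d, all lower (75.9% against 81.9% of all NDRs in either direction). In rnh201d it called 45, all higher (6.71% against 15.4% in either direction). This scale moved the median of all NDRs by up to -0.73 log2 (rtt109d), since the rDNA share enters the total. With the first column number as a block, calls numbered 28 across groups (4.17% of members against 11.4% of all NDRs). They numbered 10 in diamide (1.49% against 0.729%), 3 in thiolutin (0.447% against 0.536%) and 1 in rtt109d (0.149% against 1.27%). Med1d had 1 (0.149% against 2.25%), rnh201d 1 (0.149% against 2.1%) and H4d4-14 2 (0.298% against 4.18%). Among these comparisons, only diamide kept a higher share of calls in members than in all NDRs. The replicate numbers did not pair the samples (correlation of deviations of same-numbered libraries -0.47 to 0.47, median 0.04 over 59 pairs); the replicate block gave 34 diamide calls and changed no other count by more than 1.5 times. DESeq2 gave 27 diamide calls (4.02% against 1.47% of all NDRs). Without wild-type replicate 17 in the fit and with no block (added after seeing the data), thiolutin had 52 calls (7.75% against 2.29%). Leaving out single replicates gave 41 to 71 calls across groups, 5 to 57 in diamide, 12 to 44 in thiolutin, 0 to 4 in rtt109d and 4 to 10 in ssu72-2. For diamide, leaving out H4d4-14 replicate 1 gave 30 and rnh201d replicate 1 gave 34; the cause was not tested. Of the named calls, none reversed. At 37 °C, a pseudocount of 2 reads gave 2, 3, 4 and 6 members past 2-fold in rgr1-100, rsc8-21, scc2-4 and sth1-2; a 1.5-fold limit gave 45, 78, 88 and 87; TMM scaling gave 1 in rgr1-100 and 1 in rsc8-21. The share near a boundary was 27.9% within 100 bp and 59.5% within 500 bp. The mean share of wild-type reads outside the rDNA locus was 1.60% on the lowest 5% and 8.86% on the lowest 20% of NDRs, and 2.79% with the locus in the total. In the simulated data for diamide, a group of 2 libraries, 11 of 100 NDRs changed 1.5-fold were recovered. Diamide had more calls than thiolutin in the main setting (54 against 34) but fewer with DESeq2 (27 against 33), without either diamide replicate (5 against 35 and 32), without H4d4-14 replicate 1 (30 against 34) and without rnh201d replicate 1 (34 against 44).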

Other observations

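The 5 members with the highest mean rank over the 8 groups that did not choose them were XVI 702007 (end of TEF1), XII 262931 (start of RPL22A), XVI 407861 (between the ends of RPL21B and ATP4), VIII 34275 (start of SBP1, an RNA-binding protein gene) and V 53406 (start of RPL12A). At XII 262931 the wild-type replicates ranged from 9.69 to 108.4 with a median of 68.8, and rtt109d had 112.3 to 138.1, above all of them. At V 53406 diamide had 115.0 and 117.5 and thiolutin 120.3 and 129.8, above the highest wild-type replicate (88.7). At VIII 34275 thiolutin had 120.3 and 162.2 and the wild-type replicates at most 107.4. At XVI 407861 diamide had 126.6 and 135.3 and thiolutin 115.5 and 118.2, against at most 96.3 in wild type. These values show no test, since wild type chose the members and the rank chose these 5.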
